A study of Mus musculus with 7 samples.

Results

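On days 4 and 5 of retinoic acid treatment, CCE cells, a mouse embryonic stem cell line, had lower levels of the endocytic receptor genes Lrp2 and Cubn than on day 3, and higher levels of Gstm1, Igf2 and Pkdcc. Of 14 core pluripotency genes analysed, 8 were also at least 2-fold lower in the mean of these days, while Sox2 was level. The late course compares the libraries of days 4 and 5 with that of day 3, which are 3 of the 7 libraries of the series. All 3 came from cells without leukemia inhibitory factor (LIF) in 5 µM retinoic acid, for 3, 4 or 5 days. Day 0, used here only to show where a level started, had LIF and the DMSO vehicle, and days 1, 2 and 6 had the same retinoic acid treatment. Cells grew without feeders on gelatin, and their medium was renewed every other day, with no label saying on which days. CCE is a single line, each day had 1 library of ribosomal-RNA-depleted total RNA, and separate cultures are not stated in the labels. There is thus no replicate error, no p-value is given, and time in culture and the length of treatment cannot be told apart.

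Each gene symbol was represented by its transcript with the highest mean over the 7 libraries. Symbols with a log2 read value of at least 7 on day 3, 4 or 5 were kept, which was 10849 of the 12071 symbols in the table. The late difference is the mean of days 4 and 5 minus day 3, in log2 units, so that 1 is a 2-fold change. A symbol was called when this mean reached 2-fold and both days lay on the same side of day 3. A level below is the deposited log2 read value, which is not divided by transcript length. Single genes are therefore compared with each other only per kilobase, while median and summed levels of sets of genes are not corrected for length. Beside a difference, the interval in brackets is an exact binomial (Clopper-Pearson) 95% interval from the reads of the 2 libraries, and it covers counting error only.

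As background, retinoic acid binds nuclear receptors that sit on DNA with their partners, and it drives embryonic stem cells out of pluripotency towards neural, mesodermal or extraembryonic endoderm fates, depending on the culture. Visceral endoderm, the absorptive layer of the yolk sac, takes up proteins, vitamins and lipids through megalin (Lrp2) and cubilin (Cubn), large receptors that also work in the kidney tubule. Cubilin reaches the cell surface with the small transmembrane protein amnionless (Amn). Igf2 is an imprinted fetal growth factor, Gstm1 a glutathione transferase that conjugates electrophiles, and Pkdcc a secreted tyrosine kinase of the secretory pathway that is needed for skeletal growth.

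The libraries of days 3, 4 and 5 held 9911246, 17923852 and 16503844 recovered reads. Over the series the totals ran from 7194325 on day 6 to 17923852. The median transcript level was between 8.86 and 9.15 on days 0 to 5 and 7.95 on day 6, a library that stood apart and enters no difference below. In RNA of a whole culture, fewer cells of a type and less RNA per cell cannot be told apart, for any gene below.

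More genes were called higher than lower after day 3. Of the 10849 symbols, 341 (3.14%) were higher and 121 (1.12%) were lower, so 73.8% of the 462 called symbols (4.26%) were higher. After quantile normalization of the 3 days the counts were 213 and 172, or 55.3% higher. Day 4 by itself had 196 symbols (1.81%) at least 2-fold above day 3 and 78 (0.719%) at least 2-fold below it. Day 5 by itself had 569 (5.24%) above and 183 (1.69%) below. The median difference over all kept symbols was 0.06 on day 4 and 0.08 on day 5. Counts of called genes on a list below are to be read beside the shares of 3.14%, 1.12% and 4.26%.

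Most differences were larger on day 5 than on day 4. Among the 341 higher symbols, 315 stood further from day 3 on day 5, with median differences of 1.05 on day 4 and 1.70 on day 5. Among the 121 lower symbols the number was 105, with medians of −1.09 and −1.49. Day 4 and day 5 lay on opposite sides of day 3 in 1865 kept symbols (17.2%), and 4 of these were 2-fold from day 3 on either day. These were Cacna1g, Car11, Emp1 and Mapt, named here after their values were seen; each was at least 2-fold higher on day 5 alone. At least a 4-fold mean difference was reached by 49 higher and 7 lower symbols.

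**Figure D1:**
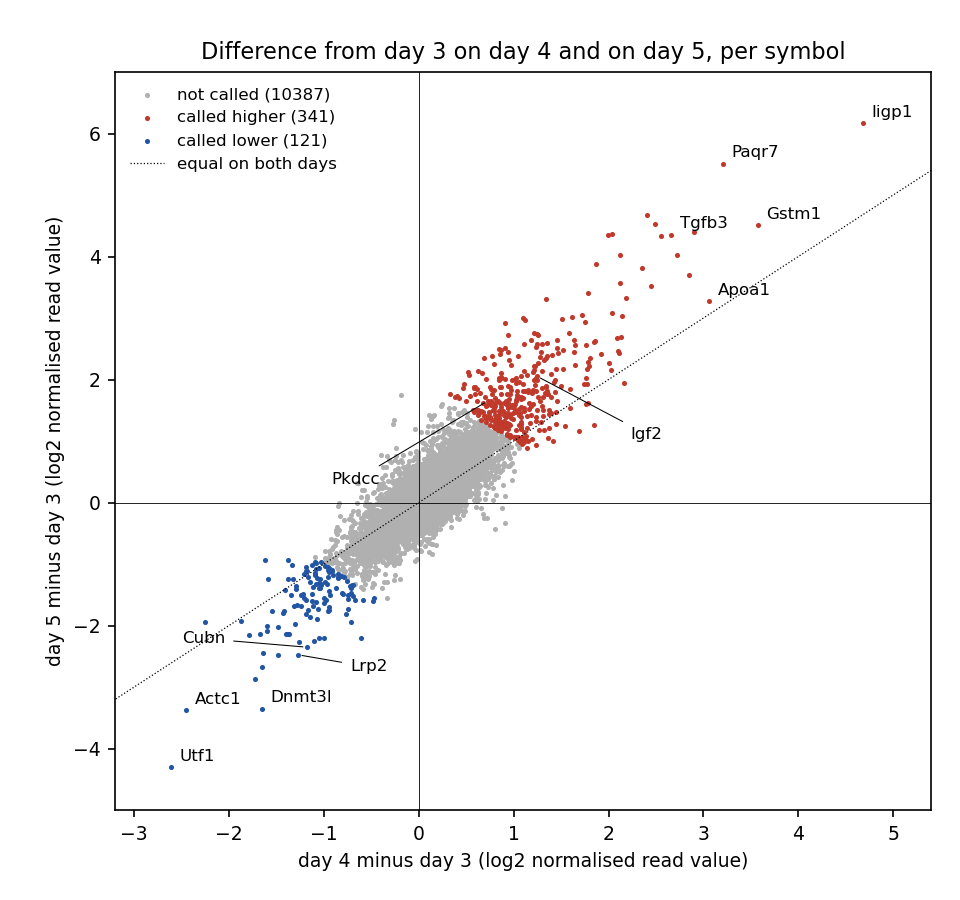
Each point is 1 of the 10849 kept symbols, with day 4 minus day 3 on the horizontal axis and day 5 minus day 3 on the vertical axis, both in log2 units. Red points are the 341 symbols called higher, blue points the 121 called lower, and the dotted line marks equal differences on both days; 315 of the red points lie above it and 105 of the blue points below it.

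The higher symbols came from lower starting levels. Their median level on day 3 was 6.97, with a median of 63 reads, against a median level of 9.27 over all kept symbols. Of the 341, 174 were below the minimum on day 3 and were kept only through day 4 or 5, so they had to be higher there. The lower symbols had a median day 3 level of 9.17 and 290 reads, and 33 of them were below the minimum on both later days. These 33 were kept only through day 3, so they had to be lower afterwards. The 95% counting intervals of both days left out 0 in 331 of the higher and all 121 of the lower symbols. Transcript length moved weakly with the difference, with a Spearman correlation of 0.15 over all kept symbols. The median length was 3384 bases for higher, 2431 for lower and 3009 for all kept symbols. The part of length in the result was not tested beyond the removal of its trend, which gave 332 higher and 118 lower symbols.

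Symbols near the threshold show what a call means. Fat3 and Maged2 were just inside at 1.00, and Lysmd4 (0.997) and Rhoq (0.995) just outside. On the lower side Cyba (−1.001) and Hoxb13 (−1.004) were just inside, and Etv5 (−0.999) and Gabrd (−0.999) just outside.

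The receptor complex of absorptive endoderm declined from its high on day 3. Promoter sequences of its 3 core members are shown because the 3 transcripts moved together. Each is the window of 250 bases before the annotated start in RefSeq, build GRCm38.p6, read 5′ to 3′ on the gene's strand. Capitals mark CCGCCC (a GC box, on either strand), and in Amn also an overlapping TGACNNNGC on the other strand. Lrp2 lies at chr2:69586030-69586279 (minus strand), Cubn at chr2:13491877-13492126 (minus strand) and Amn at chr12:111270846-111271095 (plus strand).
Lrp2: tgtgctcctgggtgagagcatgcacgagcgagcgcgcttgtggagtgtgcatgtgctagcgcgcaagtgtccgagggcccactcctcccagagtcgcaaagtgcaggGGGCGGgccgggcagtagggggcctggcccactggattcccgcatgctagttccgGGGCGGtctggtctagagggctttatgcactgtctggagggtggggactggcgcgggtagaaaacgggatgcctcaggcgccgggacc
Cubn: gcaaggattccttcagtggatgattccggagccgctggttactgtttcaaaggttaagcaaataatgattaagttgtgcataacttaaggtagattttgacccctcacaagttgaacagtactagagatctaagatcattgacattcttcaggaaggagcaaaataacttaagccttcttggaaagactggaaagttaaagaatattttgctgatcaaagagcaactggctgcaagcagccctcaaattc
Amn: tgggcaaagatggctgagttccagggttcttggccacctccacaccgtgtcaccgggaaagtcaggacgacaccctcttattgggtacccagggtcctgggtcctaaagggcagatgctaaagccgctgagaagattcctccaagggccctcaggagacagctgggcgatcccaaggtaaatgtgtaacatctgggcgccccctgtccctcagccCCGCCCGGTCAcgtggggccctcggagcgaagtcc

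The 3 windows differ in composition, with 66.4% G and C in Lrp2, 61.2% in Amn and 39.6% in Cubn. Lrp2 holds 2 GC boxes, at −143 to −138 and −88 to −83 from the start, and Amn holds 1 at −35 to −30. Each window was searched on both strands for 6 motifs. AGATAA is read by GATA factors, and AGGTCA is a hexamer bound by nuclear receptors. TATAAA is the TATA box, CCGCCC the GC box, and the CArG box is the element of serum response factor. TGACNNNGC, the core of the antioxidant response element, was added after values were seen. Over all 32851 promoter windows of the RefSeq table, 9.99% held AGATAA, 14.0% AGGTCA, 12.4% TATAAA, 32.7% CCGCCC, 1.47% the CArG box and 10.2% TGACNNNGC. Over the 11141 windows of kept symbols the shares were 5.29%, 10.3%, 5.93%, 60.0%, 1.12% and 11.6%, so GC boxes were commoner and TATA boxes rarer among these than in the whole table. None of these letters is in the Cubn window. A match is a description of letters, not of a bound site. A comparison of these shares between called symbols and the rest would be void, since 71.0% of the higher and 67.8% of the lower symbols had a window, under the 80% needed.

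Cubn (NM_001081084, chromosome 2, 13197964 to 13413503 in mm9) had levels of 9.48, 9.87, 14.17, 15.05, 13.87, 12.69 and 7.26 on days 0 to 6. Its level was highest on day 3 and lower on each later day. The difference from day 3 was −1.18 [−1.21 to −1.15] on day 4, 2.26-fold lower, and −2.35 [−2.40 to −2.31] on day 5, 5.11-fold lower. Lrp2 (NM_001081088, chromosome 2, 69262391 to 69424124) followed with 11.70, 12.50, 13.64, 14.04, 12.76, 11.56 and 7.63 on days 0 to 6. It too peaked on day 3 and on day 5 was back near its day 0 level. It differed from day 3 by −1.27 [−1.32 to −1.23] on day 4 and −2.48 [−2.54 to −2.41] on day 5.

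Amn, the partner of cubilin (NM_033603, chromosome 12, 112509321 to 112514637), had 8.06, 6.66 and 5.93 on days 3, 4 and 5, with differences of −1.40 [−1.80 to −1.004] and −2.13 [−2.63 to −1.66]. It rested on 134, 92 and 51 reads. Amn was below the minimum on both later days and was kept only through day 3, so it had to be lower. Folr1, the folate receptor, had 11.41, 10.61 and 9.93, a mean difference of −1.14. Per kilobase of transcript the day 3 values were 2969 for Cubn, 1082 for Lrp2, 2111 for Folr1 and 157 for Amn. On day 5 they were 581, 195, 755 and 35.9.

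Of the 10 genes on the list of this endocytic complex, all of them kept, 4 were lower and 1 higher, and the list median was −0.76 against 0.08 over all kept symbols. Amn, among the 4 lower, was kept only through day 3. Dab2, the adaptor that links these receptors to clathrin, had 13.60, 13.35 and 12.43 on days 3 to 5, a mean difference of −0.71 that was 2-fold on day 5 only. Lrpap1, the chaperone of the receptor family, had 14.15, 13.53 and 13.17. Lrp1 had a difference of −0.05 and Lrp4 of 0.17. The member called higher was Vldlr, a lipoprotein receptor, with 7.62, 9.40 and 9.79, or 1.77 [1.46 to 2.09] on day 4 and 2.17 [1.86 to 2.48] on day 5.

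**Figure D2:**
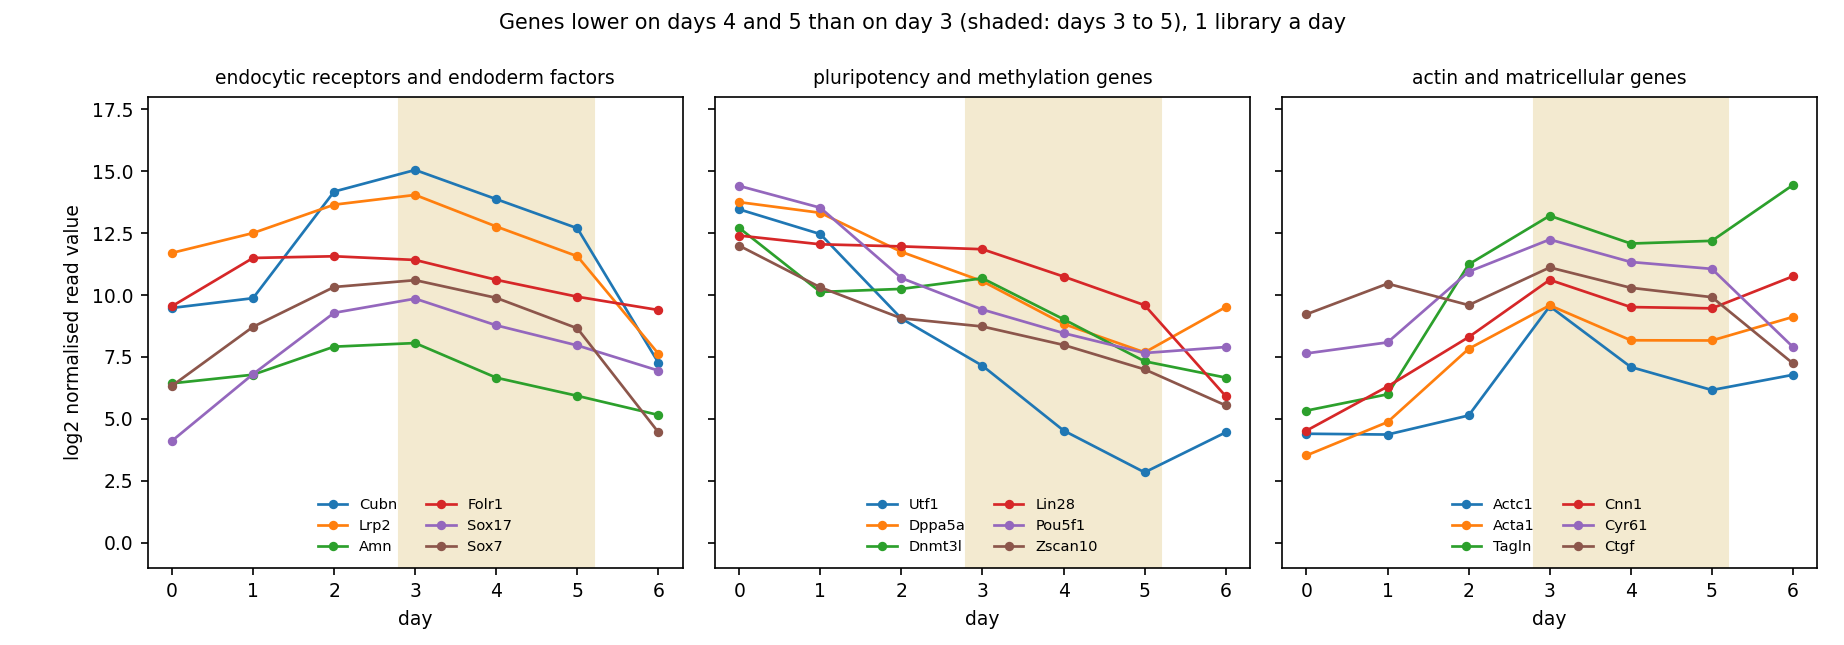
Log2 normalised read values on days 0 to 6 (1 library a day) of 18 genes lower on days 4 and 5, in 3 panels; shading marks days 3 to 5. Cubn peaks at 15.05 and Lrp2 at 14.04 on day 3, Utf1 descends on every day from 13.46 to 2.84 on day 5, and Actc1 is at 9.55 on day 3 after 5.14 on day 2.

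Endoderm transcription factors divided. Of 9 kept, 3 were lower, none was higher, and the median was −0.50. Sox17 had 9.85, 8.78 and 7.97 on days 3 to 5, −1.08 [−1.27 to −0.88] and −1.89 [−2.13 to −1.65]. Its relative Sox7 had 10.60, 9.88 and 8.65, and the coregulator Cited1 had 9.47, 9.01 and 7.92. Both SOX factors act in endoderm and in blood vessels. Gata4 (12.51, 12.63, 12.31), Gata6 (12.20, 12.45, 12.58) and Foxa2 (9.79, 10.19, 9.90), which head the endoderm program, were within 2-fold of day 3 on both days. Hnf4a, a nuclear receptor of endoderm and liver, had 7.30, 8.26 and 7.91.

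Secreted carrier proteins of yolk sac and liver went both ways. Of 8 kept, 3 were higher and 2 lower, with a median of 0.34. Without Apoa1 and Fgb, which were below the minimum on day 3, it was 1 higher and 2 lower of 6, with a median of −0.18. Apoa1, the main protein of high density lipoprotein (chromosome 9, 46036712 to 46038549), had 28, 422 and 452 reads on days 3, 4 and 5, levels of 5.80, 8.86 and 9.08, and was 8.33-fold and 9.69-fold higher. Rbp4, the plasma carrier of retinol, had 9.55, 11.24 and 10.72, and the fibrinogen chain Fgb 5.64, 7.49 and 6.90. Both were higher on day 4 than on day 5. Trf, the iron carrier transferrin, had 7.50, 5.63 and 5.58, and Apoe 10.36, 9.04 and 8.68. Trf was kept only through day 3, so it had to be lower. Ttr, the carrier of thyroid hormone, had 9.28, 9.89 and 9.97.

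Basement membrane genes stayed within the threshold. Of 13 kept, none was called in either direction, and the median was −0.20. With 4.26% of all kept symbols called, no call among 13 genes is near that share. The laminin-111 chains were among the most negative, with Lama1 at 16.74, 16.13 and 15.37 (mean difference −0.99), Lamc1 at 16.58, 16.05 and 15.38 (−0.86) and Lamb1-1 at 16.12, 15.69 and 15.02 (−0.76). These 3 were at least 2-fold lower on day 5 alone. Col4a1 had 16.77, 16.88 and 16.27. The 13 kept markers of parietal endoderm, which share 6 genes with that list, had a median of −0.15 and no call, again near that share.

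Among core pluripotency genes, those called were all lower. Of 14 kept, 8 were lower and none was higher, with a median of −1.07, the lowest of the 35 lists with a kept member. The number rests in part on the expression minimum. Utf1, Dppa4 and Dppa2 were below it on both later days and were kept only through day 3, so they had to be lower. Utf1, a chromatin factor of stem cells (NM_009482, chromosome 7, 147129754 to 147131011), had levels of 13.46, 12.46, 9.05, 7.14, 4.53, 2.84 and 4.46 on days 0 to 6. Its late difference of −3.46 was the most negative of the named genes, at −2.61 [−3.39 to −1.89] on day 4 and −4.30 [−5.80 to −3.11] on day 5, from 71, 21 and 6 reads. Dppa5a, an RNA-binding protein, had 10.56, 8.83 and 7.68, and the let-7 blocking RNA-binding gene Lin28 had 11.85, 10.75 and 9.59. Lin28 thus had kept its level near that of day 0 (12.40) until day 3. Pou5f1 (Oct4) had 9.41, 8.46 and 7.66 after 14.40 on day 0, Zscan10 8.73, 7.99 and 7.0, and Sall4 10.44, 9.75 and 8.92. Dppa4 (7.78, 6.71, 6.04) and Dppa2 (7.80, 6.95, 6.60), neighbours on chromosome 16, were the other two. Sox2 was level at 7.58, 7.62 and 7.55, and Nanog, below the minimum, stood at 5.16, 4.39 and 4.78.

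Genes of de novo DNA methylation parted. Dnmt3l, the cofactor without catalytic activity (NM_019448, chromosome 10, 77512586 to 77526360), was 10.67, 9.02 and 7.32 on days 3, 4 and 5, which is 3.14-fold and 10.2-fold lower. Dnmt3b, a methyltransferase, had 10.41, 9.60 and 8.94, a mean difference of −1.14. Dnmt3a, the third member, had 10.82, 11.31 and 11.65 and was not called. With Lefty2, a Nodal inhibitor (7.20, 4.95, 5.26), Dnmt3l and Dnmt3b were the 3 lower genes of 6 kept on the list of the formative and primed epiblast, whose median was −0.82. Lefty2 was below the minimum on both later days and was kept only through day 3, so it had to be lower. Of 7 kept naive pluripotency genes only Fbxo15 was lower (9.52, 8.52, 7.31). Of that list, 7 more were in the table below the minimum.

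Contractile genes that had climbed to day 3 were partly lower afterwards. Actc1, cardiac actin (NM_009608, chromosome 2, 113873024 to 113878547), had 5.14 on day 2, 9.55, 7.09 and 6.16 on days 3, 4 and 5. Day 3 stood alone among the 7 days, and the differences were −2.45 [−2.76 to −2.15] and −3.38 [−3.80 to −2.98]. With the mean of days 2 and 3 as the early level the mean difference was −0.71, so this call holds only with day 3 alone as the early level. Because Actc1 rose from day 2 to day 3, that mean cannot tell a day 3 peak from a deviant library. Acta1, skeletal actin, had 7.83, 9.58, 8.17 and 8.16 on days 2 to 5. Of 13 smooth muscle genes kept, 2 were lower and none was higher, with a median of −0.32. Tagln, an actin-binding protein, had 13.20, 12.08 and 12.19, and calponin Cnn1 had 10.61, 9.51 and 9.46. Against the mean of days 2 and 3 their differences were −0.09 and 0.03. Acta2 had 13.53, 13.03 and 13.40. Actin genes are near-identical, and the sources used here give no rule for reads shared between copies, so single actin genes are uncertain.

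The matricellular genes Cyr61 (12.24, 11.33, 11.05) and Ctgf (11.11, 10.29, 9.91) were lower as well, with mean differences of −1.05 and −1.01. Against the mean of days 2 and 3 these were −0.40 and −0.25, so both calls hold only with day 3 alone as the early level. Both genes rose from day 2 to day 3, so this mean cannot tell a day 3 peak from a deviant library. Among 14 immediate early and stress genes kept, Atf3, a stress-response factor, was the 1 lower gene (9.23, 7.99, 7.54), none was higher, and the list median was −0.03.

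Among symbols with at least 10 reads on day 3, the glutathione transferase gene Gstm1 had the largest late difference, and its promoter is shown for that reason. The window is the annotated promoter of Gstm1 whose start lies furthest downstream of 2, in GRCm38.p6, chr3:108017819-108018068 (minus strand), with a TATAAA in capitals at −30 to −25 from the start.
Gstm1: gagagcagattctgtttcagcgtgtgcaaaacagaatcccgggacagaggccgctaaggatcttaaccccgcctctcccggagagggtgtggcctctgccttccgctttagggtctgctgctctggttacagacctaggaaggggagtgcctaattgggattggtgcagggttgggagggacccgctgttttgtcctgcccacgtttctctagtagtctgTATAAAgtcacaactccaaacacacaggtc

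Gstm1 (NM_010358, chromosome 3, 107815168 to 107820891 in mm9) had levels of 8.27, 7.95, 8.23 and 8.95 on days 0 to 3, then 12.53, 13.47 and 13.34 on days 4 to 6. The first 4 days ran from 7.95 to 8.95, and both later days lay above all of them. The reads went from 249 on day 3 to 5361 and 9470, which is 11.9-fold and 22.8-fold higher after scaling, or 3.57 [3.39 to 3.76] and 4.51 [4.33 to 4.70]. Per kilobase its value was 381 on day 3 and 8703 on day 5.

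Of 21 kept genes of the glutathione and antioxidant list, 5 were higher and none was lower, and the median was 0.40. Nqo1, Mgst1 and Gstm7 were below the minimum on day 3 and were kept through the later days; of the 17 at or above it on day 3, 2 were higher and none was lower, with a median of 0.22. Nqo1, a quinone reductase, had 6.70, 8.49 and 8.92, or 1.80 [1.37 to 2.25] and 2.22 [1.81 to 2.67]. Nqo1 had been at 8.59 on day 0, so its later values regained that level. The microsomal transferase Mgst1 had 5.90, 7.08 and 8.54, Gstm7 5.80, 6.83 and 7.28, and Gsta4 9.94, 10.83 and 11.16. Gsta1, outside the list and also below the minimum on day 3, went from 5 reads on day 3 to 48 and 214. The glutathione synthesis genes Gclc (0.40) and Gclm (0.23), heme oxygenase Hmox1 (−0.22) and thioredoxin reductase Txnrd1 (−0.28), which share regulators with Nqo1, were not called. Gstm and Gsta genes are close copies that may share reads. Of 3 metal-binding and zinc transport genes, Mt2 was lower (7.85, 6.48, 5.72) and Mt1 had 8.94, 8.64 and 8.01. Mt2 was kept only through day 3, so it had to be lower.

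Among imprinted growth genes, those called were all higher. Igf2 (NM_010514, chromosome 7, 149836672 to 149844709) had 6.33, 8.09, 11.09 and 13.82 on days 0 to 3, followed by 15.06, 15.87 and 13.92. It was higher on each day up to day 5, with differences from day 3 of 1.24 [1.21 to 1.28] and 2.05 [2.02 to 2.09]. Its reads numbered 7255, 31061 and 50232, and per kilobase it reached 14859 on day 5, against 8703 for Gstm1. Of 17 imprinted genes kept, 3 were higher and none was lower, with a median of 0.45. Cdkn1c, a cyclin-dependent kinase inhibitor on the same chromosome (150644246 to 150646955), had 7.39, 8.73 and 9.74, which is 2.54-fold and 5.12-fold higher. Zim1, a zinc finger gene, had 7.45, 8.38 and 8.87. H19, beside Igf2, had 12.88, 13.41 and 13.70 and was not called, and Dlk1 had 12.05, 12.38 and 13.51. Slc38a4 (13.45, 12.59, 12.60) and Peg10 (15.86, 15.32, 14.85) had negative differences within 2-fold in the mean.

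Binding proteins of insulin-like growth factors were called and their receptors were not. All 5 kept Igfbp genes were called, 4 higher and 1 lower; Igfbp7 was kept only through the later days. Igfbp7 had 5.99, 7.12 and 8.97, Igfbp4 11.03, 11.97 and 12.60, Igfbp5 12.27, 12.88 and 14.12, and Igfbp3 10.10, 11.02 and 11.49. Igfbp2 had 11.41, 10.34 and 10.18, −1.07 [−1.19 to −0.96] and −1.23 [−1.36 to −1.11]. The receptors Igf1r (−0.52), Igf2r (0.59) and Insr (0.51) were not called. Igfbp3, Igfbp4 and Igfbp5 reached 2-fold on day 5 alone.

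**Figure D3:**
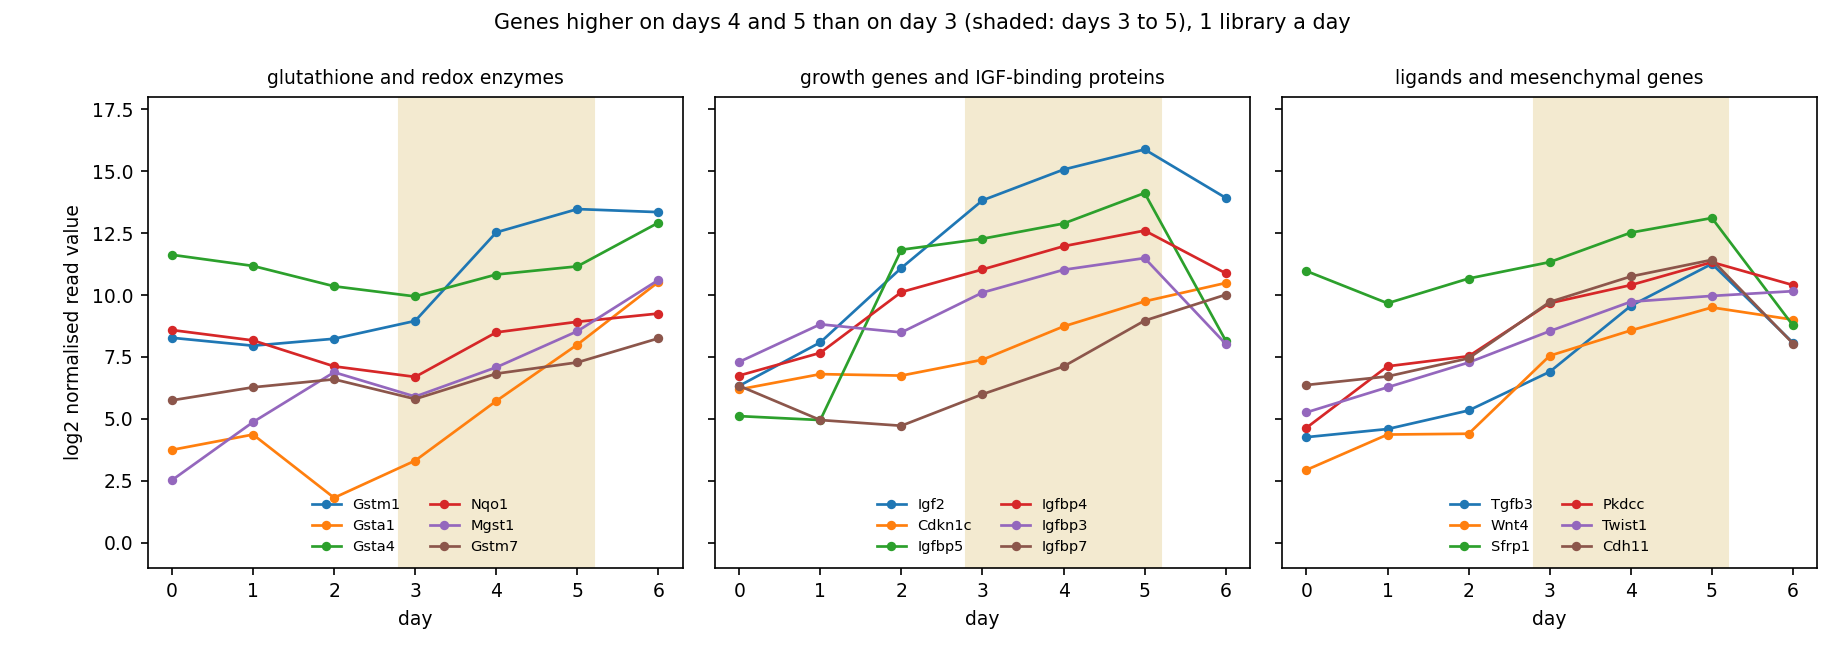
Log2 normalised read values on days 0 to 6 (1 library a day) of 18 genes higher on days 4 and 5, in 3 panels; shading marks days 3 to 5. Gstm1 steps from 8.95 on day 3 to 12.53 on day 4, while Igf2 climbs on every day from 6.33 to 15.87 on day 5 and Tgfb3 from 6.90 on day 3 to 11.26 on day 5.

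Pkdcc (NM_134117, chromosome 17, 83614622 to 83624409) had 4.64, 7.12, 7.53 and 9.67 on days 0 to 3, then 10.40, 11.32 and 10.40. Its difference was 0.73 [0.57 to 0.89] on day 4, 1.66-fold, and 1.65 [1.501 to 1.81] on day 5, 3.15-fold, so 2-fold was passed on day 5. It was the 1 called gene among 7 secretory pathway kinases and kinase-like genes kept, beside 4.26% of all kept symbols. Fam20a had 6.35, 7.29 and 7.25, and Fam20c, the casein kinase of the Golgi, 7.93, 7.69 and 7.51.

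Signalling genes of the Wnt, BMP and TGF-beta families were called in equal number each way, 4 higher and 4 lower of 22 kept, with a median of 0.13. With the mean of days 2 and 3 as the early level they were 7 and 1, Dkk1 being the lower one. Tgfb3 and Wnt5a were below the minimum on day 3 and were kept through the later days. Tgfb3, a TGF-beta ligand (NM_009368, chromosome 12, 87397693 to 87419991), had 60, 686 and 2046 reads on days 3, 4 and 5, levels of 6.90, 9.56 and 11.26, and was 6.32-fold and 20.5-fold higher. Its sister ligand Tgfb2 had 10.26, 10.94 and 11.43 and was not called. The Wnt ligands Wnt4 (7.55, 8.57, 9.50) and Wnt5a (6.93, 8.0, 8.60) and the secreted Wnt inhibitor Sfrp1 (11.33, 12.52, 13.11) were higher. Dkk1, another Wnt inhibitor, had 8.57, 7.31 and 6.30, a difference of −1.26 [−1.58 to −0.94] on day 4 and −2.27 [−2.70 to −1.86] on day 5. Bmp2 had 8.13, 7.66 and 6.52, while Bmp4 had 7.58, 8.02 and 8.33. Cyr61 and Ctgf, above, complete the lower members.

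Some mesenchymal genes were higher, and several epithelial genes had negative differences. Of 19 kept genes of the cadherin, junction, keratin and mesenchymal transition list, 4 were higher and 1 lower, with a median of 0.07. The 4 were Cdh11, a cadherin of mesenchyme (9.72, 10.75, 11.42), and the transition factors Twist1 (8.54, 9.73, 9.96), Zeb2 (9.10, 10.15, 10.12) and Snai2 (7.10, 7.95, 8.30). The tight junction gene Cldn4 was lower (9.49, 7.89, 7.40), −1.60 [−1.85 to −1.35] and −2.09 [−2.38 to −1.81]. Cdh1, E-cadherin, had 11.30, 10.65 and 10.16, Cdh3 9.38, 8.50 and 8.42, and keratin Krt8 13.74, 13.16 and 12.64, none of them called. Keratin Krt19 ran the other way with 10.74, 11.26 and 11.29, and Vim had 14.15, 14.05 and 14.15.

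Interstitial matrix genes differed from day 3 mainly on day 5. Of 19 kept, Col3a1 was the 1 called (11.75, 12.46, 13.05), and the median was 0.04 on day 4 and 0.54 on day 5. With 4.26% of all kept symbols called, 1 of 19 is near that share. Col1a1 had 11.07, 11.22 and 12.47 and Col1a2 9.65, 9.76 and 11.07, both within 2-fold of day 3 on day 4 and over 2-fold above it on day 5. Loxl2, which crosslinks collagen, had 12.00, 12.75 and 13.09, and Fn1 14.58, 14.27 and 14.70. Of 14 serpin and matrix protease genes kept, Serpine2 (10.37, 11.48, 11.90) and the gelatinase Mmp2 (10.08, 10.67, 11.96) were higher, and the plasminogen activator Plau was lower (8.41, 7.03, 7.48). Of 9 kept fibroblast markers, Twist1 and Col3a1 were higher, and the receptors Pdgfra (12.23, 11.83, 11.34) and Pdgfrb had differences of −0.65 and −0.31.

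Of 15 kept neuronal genes, 6 were higher and none was lower, with a median of 0.82. The number rests in part on the expression minimum: 5 of the 15 were below it on day 3, and of the other 10, 2 were higher and none was lower, with a median of 0.36. Elavl3, a neuronal RNA-binding protein, had 17, 111 and 175 reads on days 3, 4 and 5, levels of 5.08, 6.93 and 7.71. Neurog1, a proneural factor, had 5.24, 6.99 and 7.18. The neurofilament Nefm (6.16, 7.12, 7.84), the growth cone gene Stmn2 (6.70, 7.54, 8.68), Onecut2 (9.63, 10.90, 10.80) and the adhesion molecule Ncam1 (10.28, 11.02, 11.89) were the others. On day 0 Stmn2 had been at 11.74, above its day 5 level, Elavl3 at 7.15, Nefm at 3.94 and Neurog1 at 2.53. Elavl3, Neurog1, Nefm, Stmn2 and Mapt were the 5 kept through the later days. The 9 members not called ran both ways. Dcx (0.95), Nefl (0.82), Sox11 (0.77) and Mapt (0.55) had positive differences, and negative ones ran from Tubb3 (−0.05) and Isl1 (−0.12) to Pax6 (−0.44) and Nes (−0.61). Sox1 was below the minimum throughout these days at 6.93, 6.16 and 5.30.

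Of the Hox genes, which set position along the body axis, those of cluster C held the higher calls. Of 23 kept, 4 were higher, all in cluster C, and Hoxb13 was lower. The median over the 23 was 0.50. Hoxc6 was below the minimum on day 3 and was kept through the later days, so it had to be higher. Of the 18 at or above the minimum on day 3, 3 were higher and 1 lower, with a median of 0.52. Hoxc6 (chromosome 15, 102839992 to 102842312) had 6.20, 7.42 and 8.42, or 1.22 [0.70 to 1.78] and 2.22 [1.72 to 2.75]. Hoxc5 had 7.35, 8.41 and 9.31, Hoxc8 7.97, 9.04 and 9.68, and Hoxc4 7.87, 8.68 and 9.22. On day 2 all 4 had stood above their day 3 level, Hoxc8 at 8.73 and Hoxc4 at 8.41. These genes are neighbours, and overlapping transcripts there may share reads. Of the other 2 kept C genes, Hoxc9 had 7.90, 8.54 and 8.97 and Hoxc13 a difference of 0.31. None of the 8 kept A genes was called, and Hoxa9 had a difference of 0.94. Hoxb13 had 8.89, 7.93 and 7.84, and was just past the threshold at −1.004. Of 10 orphan nuclear receptor and TALE cofactor genes, Pbx3, a partner of Hox proteins, was higher (8.06, 9.11, 9.57), while Nr2f1 had 9.73, 10.38 and 10.97 and Nr2f2 10.67, 11.29 and 11.60.

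Of 18 kept genes of retinoid handling, 2 were higher and 1 lower, with a median of 0.31. Rdh10, which makes retinaldehyde from retinol, had 8.78, 10.11 and 10.57, or 1.33 [1.12 to 1.54] and 1.79 [1.58 to 2.00]. Rbp4 was the other higher gene. Stra8, a retinoic acid target of germ cells that stood at 12.70 on day 1, had 8.99, 7.94 and 6.80. The degrading enzyme Cyp26a1 had 13.93, 13.82 and 13.26, the receptor Rarb 11.11, 11.59 and 11.66, the reductase Dhrs3 10.88, 11.66 and 12.00, and the binding protein Crabp2 9.06, 8.15 and 8.29. None of these 4 was called.

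**Figure D4:**
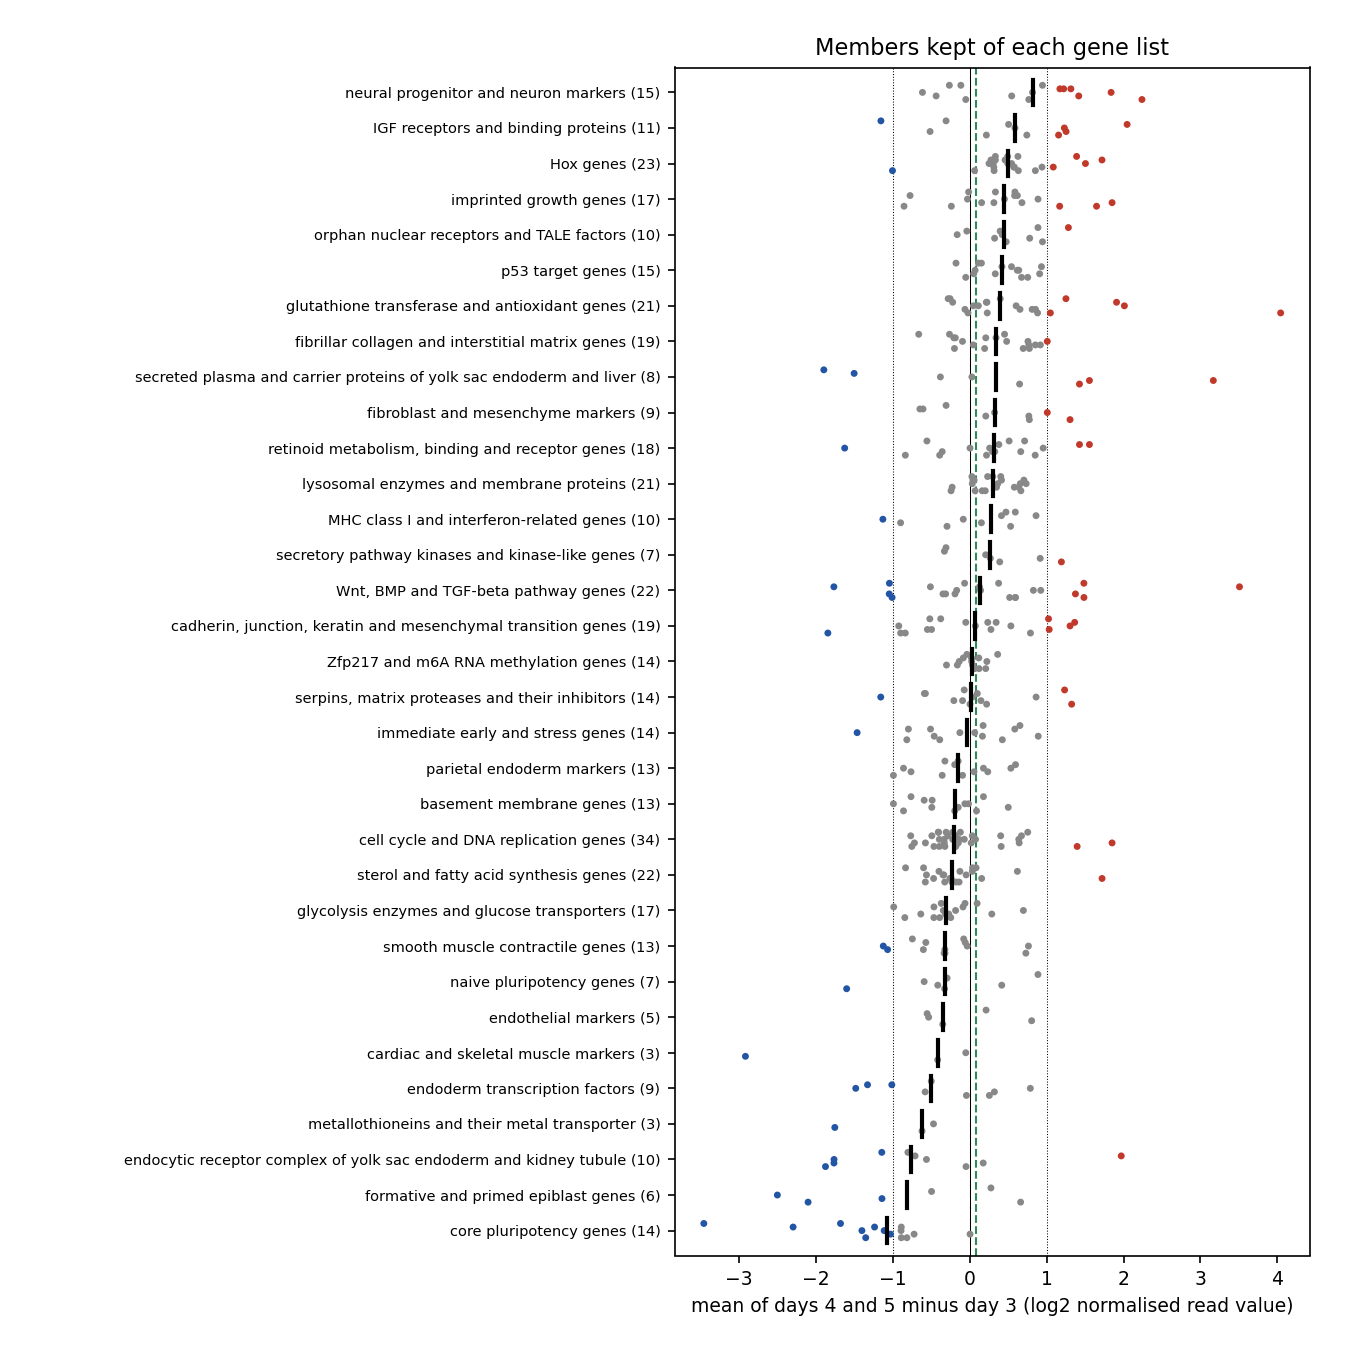
Each row is a gene list with at least 3 kept members (number in brackets), the example genes aside, each point a kept member placed by the mean of days 4 and 5 minus day 3 in log2 units, red if called higher, blue if called lower and grey if not. Black bars mark list medians, the dashed green line the median of all kept symbols (0.08) and dotted lines the 2-fold thresholds; list medians run from −1.07 for core pluripotency genes to 0.82 for neural markers.

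Several other groups contained few calls or none. With 4.26% of all kept symbols called, a list of 14 to 21 genes without a call is near that share. No gene was called among 21 lysosomal genes (median 0.30), 17 glycolysis genes and glucose transporters (−0.31), 15 p53 targets (0.42) or 14 genes of Zfp217 and N6-methyladenosine RNA methylation (0.03). In the last group, which the series title names, Zfp217 had 9.91, 10.04 and 9.91 and Mettl3, a catalytic subunit, 9.19, 8.97 and 9.09. Glycolysis genes lay mostly below 0, with Eno1 at 14.27, 13.51 and 13.05 and the glucose transporter Slc2a1 at 13.46, 12.90 and 12.32. Among 34 cell cycle genes the median was −0.20. The 2 higher ones were Ccnd1, cyclin D1 (8.59, 9.67, 10.31), and the inhibitor Cdkn1c, and the helicase gene Mcm5 had 12.33, 11.62 and 11.50. On day 0 Ccnd1 had been at 11.57, above its day 5 level, and Cdkn1c at 6.19. Among 22 sterol and fatty acid genes Insig1, which holds back sterol synthesis, was higher (10.78, 12.37, 12.63), while the median was −0.24. Of 10 MHC class I and interferon-related genes H2-D1 was lower (8.16, 7.29, 6.78), and Tap1 had 8.22, 8.95 and 9.22. H2 genes are close copies and may share reads.

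Markers of other cell types were mostly not in the table, not kept or not called. A marker missing from the table could not be assessed. None of 10 trophoblast markers was kept, as 2 were below the minimum and the others were not found in the table. Of 11 blood markers Runx1 alone was in the table, and it was kept (8.28, 8.13, 8.05). Of 9 endothelial markers 7 were in the table, 5 were kept and none was called, with summed levels of 11.49, 11.56 and 11.36 on days 3 to 5. Of 12 cardiac and skeletal muscle markers 5 were in the table, 3 were kept, and Actc1 was lower. The summed level of the 15 neural genes was 12.99, 13.36 and 13.78 on days 3, 4 and 5, and that of the 9 fibroblast markers 13.59, 13.77 and 14.35. The summed level of the endocytic list was 16.59, 15.81 and 15.37. The part that cell mixture had in these results was not tested.

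The largest single differences often rested on few reads. Iigp1, an interferon-inducible GTPase, had 2, 93 and 239 reads on days 3 to 5, a mean difference of 5.42, with a day 4 interval of 2.79 to 7.75. Paqr7, a membrane progestin receptor, had 3, 50 and 228 reads and Bhlhe22, a neuronal transcription factor, 4, 54 and 140. A count of 1 read is the lowest in a library and may stand for none, so these sizes are loosely fixed. Of the 341 higher symbols, 9 had fewer than 10 reads on day 3, and they include Gsta1, the ligand gene Areg (5, 37, 172), Gkn2 (5, 36, 170), Ntsr1 (7, 91, 151) and Cebpd (7, 55, 189). All genes named in this paragraph were below the minimum on day 3. They were kept only through the later days, so they had to be higher.

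Other large differences started from more reads, though Muc13 and Gpm6b had 16 and 19 on day 3. Hic1, a transcriptional repressor (chromosome 11, 74978066 to 74983757), had 27, 275 and 1033 reads, levels of 5.75, 8.24 and 10.27. S1pr3, a sphingosine-1-phosphate receptor (chromosome 13, 51504132 to 51518166), had 40, 423 and 1350 reads, 5.85-fold and 20.3-fold higher. The mucin Muc13 had 4.99, 7.72 and 9.02, and the membrane proteolipid Gpm6b 5.24, 7.60 and 9.06. Hic1, S1pr3, Muc13 and Gpm6b were below the minimum on day 3 and were kept through the later days, so they had to be higher. Downward, the carbonic anhydrase Car4 had 10.51, 8.86 and 7.84, arginase Arg1 8.35, 6.68 and 6.21, and the phosphatase regulator Ppp1r16b 9.17, 7.69 and 6.70. Laptm5 (7.67, 6.02, 5.21) and the glycosyltransferase B3gnt7 (8.21, 6.42, 6.07) had been higher on day 0, at 12.20 and 11.23. Laptm5, B3gnt7 and Arg1 were below the minimum on both later days and were kept only through day 3, so they had to be lower.

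**Figure D5:**
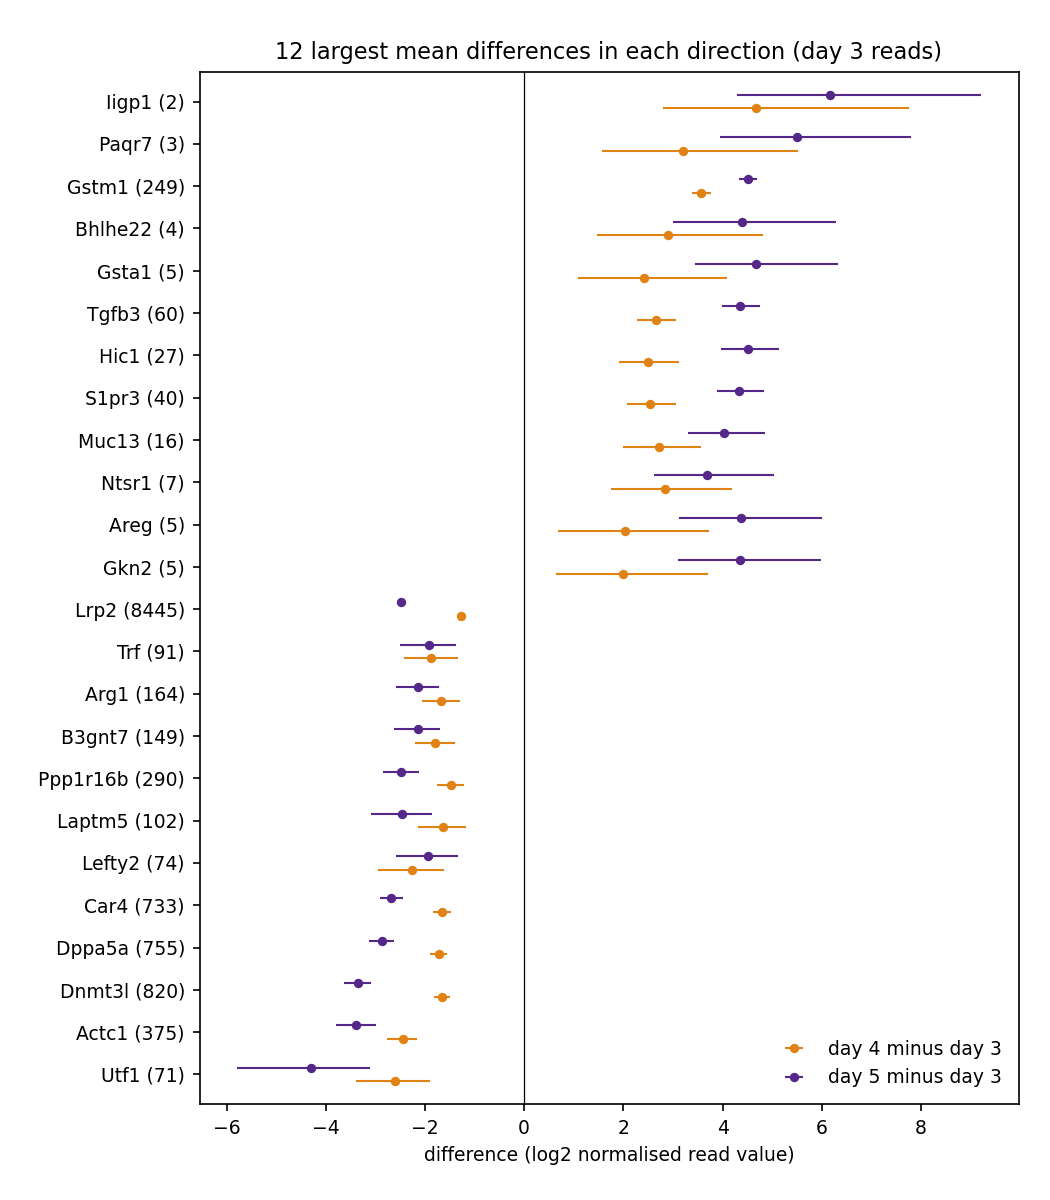
The 12 largest mean differences in each direction (on the lower side, down to Lrp2), as day 4 minus day 3 (orange) and day 5 minus day 3 (purple) in log2 units, with exact 95% counting intervals as bars and the day 3 reads in brackets. Intervals are wide where day 3 had few reads (Iigp1, 2 reads) and narrower than the point for Lrp2 (8445 reads).

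The lower symbols joined different courses. Over days 0 to 5, the highest level fell on day 3 in 39 of the 121. In the others it fell earlier, in 36 of them on day 0, in 17 on day 1, and in 29 on day 2. Cubn, Lrp2, Amn, Sox17, Sox7, Actc1, Cldn4, Atf3 and Car4 peaked on day 3, whereas Utf1, Dnmt3l, Dppa5a and Pou5f1 were highest on day 0. Stra8 and B3gnt7 were highest on day 1, and Lefty2, Arg1, Trf and Dkk1 on day 2. Of the 341 higher symbols, 302 were highest on day 5, 26 on day 4 and the rest on an earlier day, which follows in part from the rule.

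The ontology terms in the deposited table were counted over the called symbols and over all kept symbols. The term extracellular region was on 4.01% of kept, 17.0% of higher and 15.7% of lower symbols. Plasma membrane was on 8.84%, 22.0% and 23.1%, and cell adhesion on 2.43%, 7.33% and 8.26%. Translation was on 2.23% of kept and on none of the called symbols, and mitochondrion on 9.41%, 4.11% and 3.31%. These shares are descriptions. Another symbol called higher lay within 100 kb of 47 higher symbols (13.8%) and of 6.22% of all kept symbols; Hoxc4 to Hoxc8, Gstm7 beside Gstm1 and Gsta4 beside Gsta1 are examples. Another symbol called lower lay that near to 8 lower symbols (6.61%), such as Dppa4 beside Dppa2, and to 2.89% of all kept symbols. Both the term and the neighbour shares include the 174 higher and 33 lower symbols kept only through the days on which they were high. Hoxc6, Gstm7, Gsta1, Dppa4 and Dppa2 are among these. The called sets are therefore not a like comparison with all kept symbols, and no test was run on these shares.

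Some calls depended on the setting. Of the 462 called symbols, 96 stood on a list or among the largest differences. With the mean of days 2 and 3 as the early level, 13 of the 96 calls ended: Actc1 (−0.71), Atf3 (−0.72), Cited1 (−0.35), Plau (−0.76), Tagln (−0.09), Cnn1 (0.031), Cyr61 (−0.40), Ctgf (−0.25), Bmp2 (−0.53), Gsta4 (0.84), Gstm7 (0.85), Hoxc4 (0.81) and Stmn2 (0.49). That of Acta1 (−0.54), outside the lists, ended too. Another 17 of the 96 stayed called with a difference changed by over 1.5 times, among them Igf2 (3.01), Pkdcc (2.26), Rbp4 (3.05), Wnt4 (3.06), Col3a1 (3.42), Lefty2 (−4.06) and Stra8 (−3.0). Lrp2 (−1.68) and Cubn (−1.33) stayed called. Under this early level the median of the smooth muscle list turned from −0.32 to 0.37, with 3 higher and none lower, and that of the parietal endoderm list from −0.15 to 0.72, with 4 higher.

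Quantile normalization ended 9 of the 96 calls: Fgb (0.95), Gsta4 (0.98), Gstm7 (0.71), Hoxc4 (0.97), Nefm (0.94), Snai2 (0.88), Zeb2 (0.95), and Areg and Gkn2, whose days then had opposite signs. Removing the length trend ended 7, those of Cited1 (−0.93), Col3a1 (0.94), Ctgf (−0.994), Dppa2 (−0.988), Hoxb13 (−0.93), Tagln (−0.997) and Zeb2 (0.98). Setting the median difference to 0 ended 4, those of Col3a1 (0.94), Gsta4 (0.975), Snai2 (0.95) and Zeb2 (0.96). A pseudocount of 16 ended 6, those of Bmp2 (−0.95), Cited1 (−0.98), Ctgf (−0.999), Dppa2 (−0.93), Hoxb13 (−0.96) and Snai2 (0.947). Paqr7 stood at 2.47 after quantile normalization and Iigp1 at 3.24 with the pseudocount.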

How the data were processed

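RNA sequencing values of 7 libraries, 1 a day, were taken as deposited. The authors' table gives log2 read values per RefSeq transcript, aligned with BWA 0.7.3 to mm9 per the submitters' processing notes; the counter, its strand setting and the scaling are not stated there. Raised from the log2 scale, values up to 1000 reads were whole multiples, within 0.05, of the lowest value of the library in 100% of cases, so reads were recovered by taking that value as 1 read. They gave exact binomial 95% intervals, which cover counting error only. Differences were computed in Python 3.11.15 with pandas 2.3.3, and intervals with SciPy 1.17.1, after the procedure was tested on simulated data. With 1 library a day no test between days was run.

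The members and the 36 gene lists were chosen with earlier results of these data known. Named were the 15 largest called differences in each direction (no predicted, clone or small RNA names), 5 example genes, and up to 4 members per list with the largest same-sign difference; other list members were named after their values were seen. Some items are not reported here. Lin28a stands in the table as Lin28. Promoters came from RefSeq and matched 80.0% of kept symbols. Alternatives covered the minimum, threshold, scaling, transcript choice, length, pseudocount and days used.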

Additional observations from a re-analysis of the deposited data

How the results depend on the processing

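The counts of 341 higher and 121 lower symbols depended on the threshold, the expression minimum, the days used and the scaling. At 1.5-fold they were 1088 and 420, and with both days required to pass 2-fold 188 and 71. An expression minimum of 9 gave 163 and 62, and no minimum gave 383 and 200. Without day 4 they were 569 and 183, and without day 5 they were 196 and 78. Quantile normalization gave 213 and 172. With the mean of days 2 and 3 as the early level they were 545 and 192, and Cnn1 turned from −1.12 to 0.031, and 2 of the 462 called symbols were called with the other sign. The other alternatives left both counts within 1.5 times: 286 and 150 with the median difference set to 0, 345 and 128 with transcripts summed, 332 and 118 with the length trend removed, and 289 and 100 with a pseudocount of 16. Under these and quantile normalization no called symbol was called with the other sign. Restricting calls to intervals of both days without 0 gave 331 and 121, and to at least 10 reads on each of days 3, 4 and 5 gave 332 and 120; both were chosen after seeing the data. The cause of these shifts was not tested.

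Under each of the 3 alternatives that shifted all values (median difference set to 0, quantile normalization, length trend removed), 2 of 35 list medians, all near 0, changed sign, and no named gene changed direction; the mean of days 2 and 3 turned further list medians. No paired analysis was possible because each day had 1 library. Depth limits genes with few reads on day 3, and spread between cultures was not measured.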

Other observations

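Several gene families outside the lists had more than 1 called member; they were chosen after their values were seen, and no test was run on them. All 4 kept nuclear factor I genes, which encode DNA-binding factors of late progenitor differentiation, were higher. Nfix had levels of 5.32, 6.53 and 8.08 on days 3 to 5, Nfia 8.10, 9.22 and 9.91, Nfib 9.49, 10.59 and 11.30, and Nfic 9.07, 9.94 and 10.95. The 3 kept AMPA glutamate receptor subunits Gria3 (6.32, 7.75, 8.31), Gria4 (5.85, 6.93, 7.91) and Gria2 (5.75, 6.55, 7.37) were called higher, from 40, 29 and 27 reads on day 3. All 3, and Nfix, were below the expression minimum on day 3 and were kept through the later days, so they had to be higher. Of 22 kept Fox genes, which encode forkhead DNA-binding factors, 3 were higher, beside 3.14% of all kept symbols, none was lower and the median was 0.23. These were Foxc1 (6.52, 7.86, 8.39), Foxd1 (5.64, 6.85, 7.79) and Foxp2 (6.55, 7.50, 7.82), all below the minimum on day 3. Gata2 (9.51, 10.40, 10.83) and Gata5 (7.22, 8.33, 8.21) were the called members among 5 kept Gata genes. Of single lipid genes, Pparg had 6.83, 8.22 and 8.91 and lipoprotein lipase Lpl 10.08, 11.19 and 11.22. Pparg too was below the minimum on day 3 and was kept through the later days, so it had to be higher. The TGF-beta receptor gene Tgfbr2 had 7.89, 8.93 and 9.69 beside its ligand gene Tgfb3. Guanylate-binding genes Gbp1 (5.70, 6.23, 7.77) and Gbp2 (6.32, 6.84, 8.43) were called with Iigp1, and their day 4 intervals of −0.14 to 1.24 and −0.02 to 1.09 included 0. All 3 were kept only through the later days. Quantile normalization ended the calls of Gria2 (0.59), Gata5 (0.91), Gbp1 (0.60), Gbp2 (0.99) and Slc1a2 (0.48). Setting the median difference to 0 and a pseudocount of 16 each ended that of Gata5 (0.97 in both), and the mean of days 2 and 3 as the early level that of Slc1a2 (0.74).

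Downward, where 1.12% of all kept symbols were called, 3 of 15 kept Dusp genes, which encode phosphatases that switch off MAP kinases, were lower. These were Dusp5 (8.08, 6.66, 6.32), Dusp6 (9.86, 8.67, 8.75) and Dusp4 (9.17, 8.09, 8.09). Dusp5 was kept only through day 3, so it had to be lower. The amino acid transporters Slc1a5 (9.97, 8.66, 7.99), Slc7a1 (11.50, 10.26, 9.99) and Slc7a5 (10.77, 9.68, 9.79) were lower, among 22 kept of 4 transporter families, of which Slc1a2 was higher. The surface peptidases Mme (11.06, 10.11, 9.37) and Dpp4 (9.55, 8.56, 7.92), both also present on kidney tubule, had their highest level of days 0 to 5 on day 3, as Cubn and Lrp2 did. Alkaline phosphatase Alpl had 10.18, 8.70 and 8.16. The small X-linked genes Bex1 (11.52, 10.35, 9.76) and Bex4 (10.04, 9.37, 8.47) were lower as neighbours. No member was called among 88 ribosomal protein genes, 74 mitochondrial ribosomal genes, 36 proteasome genes and 41 NADH dehydrogenase (Nduf) genes. Over all kept symbols 4.26% were called, so the absence of a call among 36 or 41 genes is near that share.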
